A study of Mus musculus with 8 samples.

Results

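Regions of open chromatin that were called in every one of 7 sorted bone marrow stromal libraries were compared between 3 libraries, ATAC2, ATAC5 and ATAC6, and the other 4, ATAC1, ATAC3, ATAC4 and ATAC7. The members were 8428 common regions among 50683 merged regions (16.6%), where peaks with at least 1 shared base were merged and a region was kept when it held a peak of all 7 libraries. The study sorted mesenchymal stem cells of the marrow by surface proteins to compare the open chromatin of the resulting populations. Per its methods, cells carrying the endothelial and blood markers CD31, CD45 or TER119 were gated out, Sca-1, CD140a and CD24 were used for enrichment, and CD39 and CD54 to part the populations. Ly-6C is named among the candidate sort markers only in its results. The study grouped the populations on the peak intensity of these same libraries. The sets were thus chosen by the measure described here, so the differences between them are a description without a test. All libraries came from wild type C57BL/6J mice aged 6 weeks, as the labels give them, and no treatment or allele separates them. The labels do not tie a title to a sorted cluster, and the titles were taken to carry the numbers of the study's clusters. The number of animals behind a library is not given in the sources used here. Each title had 1 library, so a set holds several populations and no replicate of any of them.

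ATAC-seq uses the Tn5 transposase, which cuts accessible DNA and inserts sequencing adapters there, so reads pile up at promoters and enhancers. Promoters of widely used genes are often rich in CpG dinucleotides and open in most cell types, whereas distal elements, many of them enhancers, tend to differ more between cell types. PU.1 and C/EBP are transcription factors of the myeloid blood lineage, and C/EBP factors also act in adipocytes. Runx factors act in blood and bone, TEAD factors are the DNA-binding partners of YAP and TAZ, AP-1 is the Fos and Jun dimer, and CTCF binds insulators. In a bulk library, fewer cells with an open region and less opening per cell cannot be told apart.

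The sequences of the 3 regions with the largest difference in each direction outside untranslated regions are shown, because the comparison turns on such sites. Each is the plus strand of 200 bases around the region's centre in build mm9 (NCBIM37), in lower case, with capitals where a stretch matched the letters of any of 13 motifs on either strand. The first 3 were higher in ATAC2, ATAC5 and ATAC6 and the last 3 lower. They lie at chr9:78023846-78024045 beside the long noncoding RNA C920006O11Rik, at chr7:31868009-31868208 between genes near Fxyd3, at chr6:73317910-73318109 between genes, at chr8:124316155-124316354 in an intron of Jph3 near Klhdc4, at chr19:40714391-40714590 in an intron of Entpd1, and at chr9:60847009-60847208 between genes.
C920006O11Rik: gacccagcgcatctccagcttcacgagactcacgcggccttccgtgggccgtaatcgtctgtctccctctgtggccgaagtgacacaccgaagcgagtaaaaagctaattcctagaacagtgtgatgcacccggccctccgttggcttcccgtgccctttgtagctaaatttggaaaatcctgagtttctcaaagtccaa
Fxyd3: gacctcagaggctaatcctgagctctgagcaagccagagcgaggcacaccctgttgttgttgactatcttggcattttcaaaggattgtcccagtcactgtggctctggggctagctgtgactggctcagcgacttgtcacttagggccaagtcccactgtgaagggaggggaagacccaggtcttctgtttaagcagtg
AC122362.1: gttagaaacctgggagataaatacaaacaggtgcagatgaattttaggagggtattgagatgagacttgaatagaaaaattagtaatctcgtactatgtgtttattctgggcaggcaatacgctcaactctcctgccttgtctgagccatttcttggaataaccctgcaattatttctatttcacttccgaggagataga
Klhdc4: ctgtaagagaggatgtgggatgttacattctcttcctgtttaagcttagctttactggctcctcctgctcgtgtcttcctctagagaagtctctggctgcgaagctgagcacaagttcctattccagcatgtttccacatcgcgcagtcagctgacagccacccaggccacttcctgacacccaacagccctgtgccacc
Entpd1 intron: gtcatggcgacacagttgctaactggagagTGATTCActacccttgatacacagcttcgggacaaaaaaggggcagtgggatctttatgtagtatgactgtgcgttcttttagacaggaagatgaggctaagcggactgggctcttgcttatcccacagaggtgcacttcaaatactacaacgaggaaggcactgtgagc
Gm9869: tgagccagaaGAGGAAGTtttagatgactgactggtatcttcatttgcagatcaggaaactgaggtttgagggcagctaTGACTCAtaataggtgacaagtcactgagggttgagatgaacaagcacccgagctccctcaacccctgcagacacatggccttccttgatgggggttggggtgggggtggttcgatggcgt
The capitals in the Entpd1 sequence are AP-1 letters, and those in the Gm9869 sequence are PU.1 letters followed by AP-1 letters. The other 4 windows held none of the 13 motifs in these letters, which says only that the letters are not in these 200 bases.

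For each library the reads of a region's peaks were divided by the summed width of the outer regions in which they were counted, and the result was divided by the library's median over the 8428 regions. This scaled read density is 1 at the library median. The common regions held from 2561419 reads in ATAC7 to 5812837 in ATAC6, and the median lowest count of a region was 189 reads. The sets were fully apart in the number of peaks called, 28969 to 32280 in ATAC2, ATAC5 and ATAC6 against 15188 to 24510 in the other 4, and in the median fold of a peak over Input, 9.27 to 10.9 against 5.77 to 7.89. A difference between the populations and one in how well the libraries were enriched cannot be told apart in the comparisons that follow. Counting error of the difference between set means had a median of 0.06 on the log2 scale.

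The libraries differed from each other by a little more across the sets than within them, and the ranges overlapped. Over all common regions, the median absolute difference of 2 libraries lay between 0.21 and 0.27 on the log2 scale for the 3 pairs within ATAC2, ATAC5 and ATAC6, between 0.19 and 0.23 for the 6 pairs within the other set, and between 0.21 and 0.27 for the 12 pairs across. The largest of these values, 0.272, was that of ATAC2 and ATAC6, which belong to the same set. ATAC6 lay nearer to ATAC1 (0.224), ATAC4 (0.244), ATAC3 (0.249) and ATAC7 (0.259) than to ATAC2. Distal regions, whose centre was more than 1000 bases from any annotated start site, separated the libraries further. There the 3 pairs within the first set gave 0.25 to 0.33, the 6 within the second 0.23 to 0.28 and the 12 across 0.25 to 0.36. The lowest value across the sets, 0.25, was that of ATAC5 and ATAC7. ATAC2 stood furthest from the other set: across distal regions its Pearson r was 0.48 with ATAC1, 0.50 with ATAC3, 0.53 with ATAC4 and 0.65 with ATAC7, against 0.75 with ATAC5 and 0.75 with ATAC6. These values of r run across regions, which share the library and its depth and are not replicates.

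**Figure D1:**
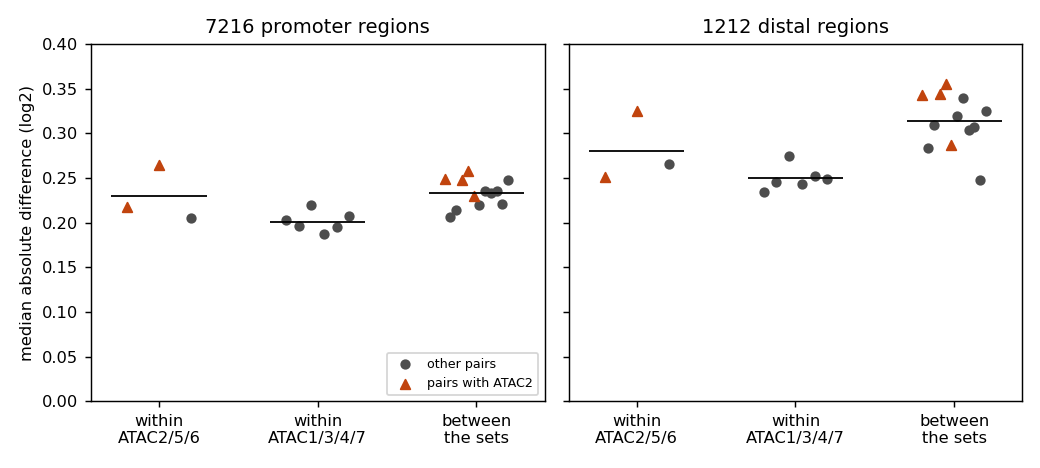
Median absolute log2 difference in scaled read density for each of the 21 pairs of libraries, over promoter regions (left) and distal regions (right). Points are pairs, horizontal lines are means and triangles are pairs with ATAC2. The pairs across the sets averaged 0.31 in distal regions, against 0.28 and 0.25 within the sets.

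In the first principal component of the distal regions, which held 39.1% of the variance between libraries, ATAC2 loaded at 0.58, ATAC6 at 0.33 and ATAC5 at 0.30. ATAC1 loaded at -0.44, ATAC3 at -0.40 and ATAC4 at -0.33, while ATAC7 was close to zero at -0.05. Over all regions the first component held 28% of the variance and ATAC2 had the loading of largest size, 0.69, with 0.34 for ATAC5 and 0.10 for ATAC6. ATAC4 loaded at -0.42, ATAC1 at -0.34, ATAC3 at -0.33 and ATAC7 at -0.03.

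Few of the common regions differed strongly between the sets. The difference of the set means of log2 scaled density, ATAC2, ATAC5 and ATAC6 minus the others, had a median of 0.004 and a standard deviation of 0.24 over the 8428 regions. In 492 regions (5.84%) all 3 libraries lay above all other 4, and in 438 (5.2%) all 3 lay below. These counts, and with them the shares above and below of every list and motif, hold for the outer width: they were 257 above and 511 below with the width of the peaks and 399 and 577 without division by width. With set means also at least 1.5 times apart, 68 regions (0.807%) were higher and 76 (0.902%) were lower in ATAC2, ATAC5 and ATAC6. Just inside this limit was the promoter of Lgr4 at 0.59, and just outside it were the regions near Naf1 at 0.58 and Ccdc12 at -0.58. A 2-fold difference was reached by 2 regions in each direction. The counts depend on the width in the denominator: dividing by the width of the peaks themselves gave 242 higher and 427 lower regions, of which 18 and 34 were among the 68 and the 76. Among the 546 regions with 1 peak in every library and outer widths within 1.5 times, 12 were higher and 3 lower, 94 lay above and 5 below, and the median difference was 0.15.

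**Figure D2:**
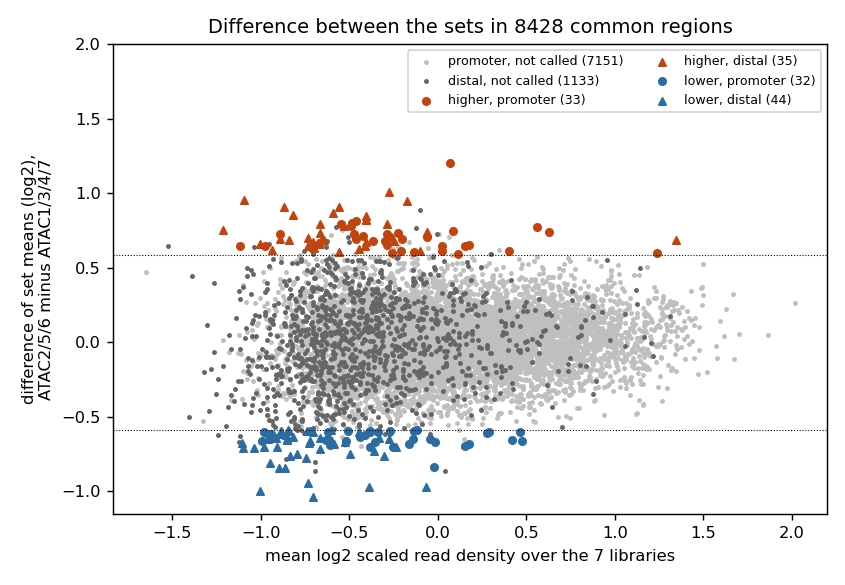
Difference of set means (log2, ATAC2, ATAC5 and ATAC6 minus ATAC1, ATAC3, ATAC4 and ATAC7) against the mean log2 scaled read density for the 8428 common regions. Dotted lines mark the 1.5-fold limit. The 68 higher and 76 lower regions lie mostly to the left, at low density.

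The regions that differed were weaker than most common regions. Among the 842 regions of lowest mean density 57 were called in either direction (6.77%), against 2 of the 843 strongest (0.237%). The spread of the difference was also larger there, with a standard deviation of 0.33 in these weakest and 0.19 in these strongest regions. The median scaled density over the 7 libraries was 0.75 in the higher and 0.65 in the lower regions. Median counting error was 0.08 for the higher and 0.10 for the lower regions on the log2 scale; it leaves out the spread between samples of 1 population, which single libraries do not give.

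ATAC2 led the higher regions. Of the 3 libraries it had the highest density in 55 of the 68 regions, ATAC5 in 9 and ATAC6 in 4. The median scaled density of the 68 regions was 1.2 in ATAC2, 0.91 in ATAC5 and 0.89 in ATAC6, and it was 0.58 in ATAC1, 0.64 in ATAC3, 0.57 in ATAC4 and 0.64 in ATAC7. Without ATAC2, 57 regions were higher, 37 of them from the 68, while the number was 106 without ATAC5 and 179 without ATAC6. The lower regions were more evenly shared, with the lowest value in ATAC6 in 33 of 76, in ATAC2 in 24 and in ATAC5 in 19. Their median scaled density was 0.50 in ATAC2, 0.54 in ATAC5 and 0.50 in ATAC6, against 0.85 in ATAC1, 0.88 in ATAC3, 0.75 in ATAC4 and 0.76 in ATAC7. Without ATAC2, 126 regions were lower, without ATAC5, 134, and without ATAC6, 79, of which 51 were among the 76. ATAC7 was the nearest of its set to the 3 libraries in 33 of the 68 higher and 31 of the 76 lower regions, and without it 142 regions were higher.

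With division by the outer width, the regions that differed in either direction were less often promoters and lower in GC than the common regions as a whole, and with the width of the peaks this contrast was smaller in the lower regions and absent in the higher ones. Position and base content took no part in forming the sets. A start site lay within 1000 bases of the centre in 33 of the 68 higher regions (48.5%, Wilson 95% interval 37.1 to 60.2) and in 32 of the 76 lower regions (42.1%, 31.6 to 53.3), whereas 7216 of all 8428 common regions were such promoters (85.6%). Put the other way, 35 of the 1212 distal regions were higher (2.89%) and 44 lower (3.63%), against 0.457% and 0.443% of promoter regions. The median GC content of 300 bases was 57% in the higher and 54.5% in the lower regions and 65.7% in all common regions. The median number of CpG dinucleotides in these 300 bases was 14, 7.5 and 27. Introns held the centre of 18 higher regions (26.5%) and 25 lower regions (32.9%), against 15.2% of all. With the width of the peaks, 86% of the higher and 78% of the lower regions were promoters, and their median GC was 66.5% and 63.7%. Within distal regions alone, with the outer width, the gap in GC narrowed, to medians of 52.3% and 52.7% against 56.3% in all distal regions. Weaker regions were also more often distal (48.8% of the 842 weakest and 3.68% of the 843 strongest), and the part of strength in these shares was not tested.

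**Figure D3:**
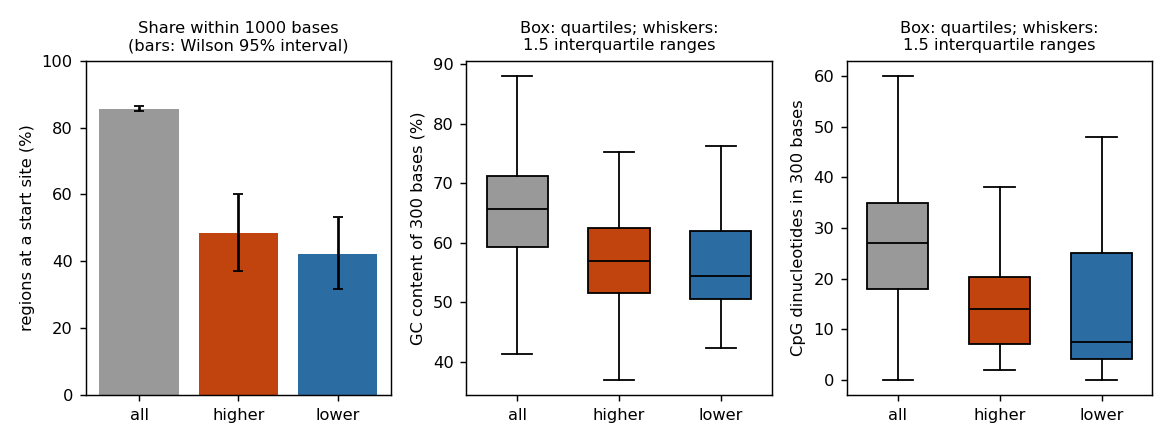
Share of regions at a start site with Wilson 95% intervals (left), GC content of 300 bases (middle) and CpG dinucleotides in the same window (right) for all 8428 common regions, the 68 higher and the 76 lower. With division by the outer width, as plotted, both called groups lie below all common regions in each panel; with the width of the peaks the higher regions had a promoter share of 86% and a median GC of 66.5%, against 85.6% and 65.7% of all.

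The region with the largest difference was the promoter of C920006O11Rik, a long noncoding RNA on chromosome 9, with its centre 224 bases from the start site. Its scaled density was 1.83 in ATAC2, 1.83 in ATAC5 and 1.43 in ATAC6, and 0.60 in ATAC1, 0.65 in ATAC3, 1.26 in ATAC4 and 0.60 in ATAC7. The means differed by 1.2 on the log2 scale, or 2.29-fold, although ATAC4 came close to ATAC6. The difference at C920006O11Rik fell to 0.63 without division by width and to 0.155 as a ratio to Input reads. The second region lay 6385 bases from the start site of Fxyd3, which encodes a regulator of the sodium pump. It measured 1.72, 0.90 and 1.22 in ATAC2, ATAC5 and ATAC6, and 0.51, 0.71, 0.68 and 0.57 in ATAC1, ATAC3, ATAC4 and ATAC7, a 2.02-fold difference. Its outer regions were wider in the 3 libraries, at 812 to 834 bases against 297 to 450. The third, 24127 bases from the miRNA gene AC122362.1 on chromosome 6, had 0.78, 0.62 and 0.66 against 0.30, 0.39, 0.37 and 0.36. In this region the 4 libraries lay close together and apart from the 3.

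Further higher regions lay at varied distances from the start sites by which they are named. A GC-rich region (79.7%) on chromosome 3, 68396 bases from the pseudogene Gm10259, reached 1.62 in ATAC2 and differed by 0.95. A region 12831 bases from the start site of the long noncoding RNA A430010J10Rik differed by 0.91. Its values of 0.80 in ATAC5 and 0.78 in ATAC6 were next to 0.78 in ATAC7. An intron of Arid1b, which encodes a subunit of the SWI/SNF chromatin remodelling complex, had 1.05, 0.73 and 0.62 against 0.37 to 0.47. A site on chromosome 10, 30725 bases from a SNORA17 copy, differed by 0.87. An intron of Nkx2-2, a homeobox gene, near its antisense transcript Nkx2-2as differed by 0.85. There the outer regions were 174 bases in ATAC5 and 179 in ATAC6 against 529 to 618 elsewhere, and reads without division by width turned the difference to -0.66. A region 60774 bases from the start site of Ank, which encodes a pyrophosphate transporter, differed by 0.84. One 4406 bases from that of Crb2, a cell polarity gene, differed by 0.82, and by -0.26 without division by width.

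In the other direction the largest difference was in an intron of Jph3, 5074 bases from the start site of Klhdc4. Scaled density was 0.43 in ATAC2, 0.38 in ATAC5 and 0.41 in ATAC6, and 1.09 in ATAC1, 0.82 in ATAC3, 0.62 in ATAC4 and 0.89 in ATAC7. The means were 2.06-fold apart, and the outer regions were of like width in all libraries, from 331 to 446 bases. Next was an intron of Entpd1, the gene of CD39, an enzyme that breaks down extracellular ATP and one of the surface proteins by which the study sorted its populations. It measured 0.38, 0.39 and 0.25 in the 3 libraries and 0.76, 0.80, 0.54 and 0.61 in the 4, a 2-fold difference. Since CD39 was a sort marker, the gate and the density of this region cannot be told apart. The third region, between genes on chromosome 9, had 0.42, 0.61 and 0.55 against 1.09, 1.35, 0.74 and 0.98. Its nearest start site, 161101 bases away, is that of Gm9869, and its difference went from -0.97 to -0.53 with the width of the peaks.

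Introns of Itgb2, Fmnl1 and Dgkz held 3 of the 10 most negative differences among regions with at least 50 reads in every library. Itgb2 encodes the beta-2 integrin of leukocytes, and its intron had 0.38, 0.55 and 0.34 against 0.74, 0.74, 0.71 and 0.63. Fmnl1 encodes a formin of blood cells, and its intron differed by -0.76 with 0.62, 0.65 and 0.54 against 1.5, 1.12, 0.67 and 0.95. ATAC4 lay next to the 3 libraries there, and the difference was 0.01 when reads were divided by the width of the peaks. An intron of Dgkz, a diacylglycerol kinase of lymphocyte signalling among other roles, had 0.42, 0.42 and 0.44 against 0.77, 0.66, 0.67 and 0.78. Lower regions that were picked after their values were seen include an intron of Inpp5d, the gene of the phosphatase SHIP1, at -0.75, and 3 more negative sites that fell short of 50 reads in a library, near the chemokine gene Cxcl1 at -0.85 (40 reads), near Morc3 at -0.84 (44 reads) and near Klf2 at -0.81 (47 reads). The share of blood cell genes among the lower regions was not counted. None of the 4 distal regions of the haematopoietic list had separate sets.

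The remaining lower regions of the first 10 lay on chromosome Y, in Heatr7b1, at Wbp2 and near Gm5428. The region on chromosome Y, 339542 bases from the start site of Gm3395, had 0.81, 0.63 and 0.54 against 0.91, 1.39, 1.47 and 1.4, and the Input library gave 114 to 343 reads there. The region in Heatr7b1 had outer widths from 173 to 1134 bases, a ratio of 6.55, and 25 to 152 Input reads. At the Wbp2 promoter the low value was that of ATAC5, 0.32, while ATAC2 at 1.02 and ATAC6 at 1.07 were next to ATAC7 at 1.09, and without ATAC5 the difference at Wbp2 was -0.27. A region near Gm5428 on chromosome 10 differed by -0.77.

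**Figure D4:**
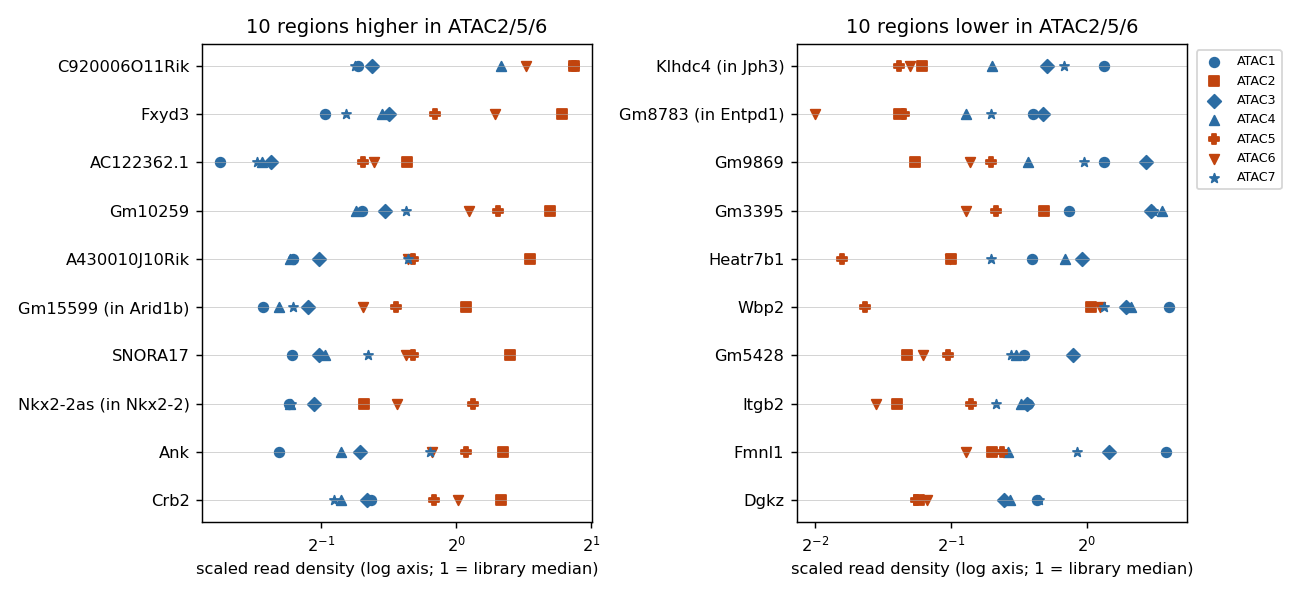
Scaled read density (log axis, 1 is the library median) of the 10 regions with the largest difference in each direction among those with at least 50 reads in every library, with 1 point per library. Names are the nearest annotated start site, with the host gene where another gene holds the region. ATAC2, ATAC5 and ATAC6 are red and the other 4 libraries blue.

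Distal regions with the letters of PU.1, C/EBP or Runx had lower set means in ATAC2, ATAC5 and ATAC6 at the median, and those with TEAD letters had higher ones. The motif letters were sought in 300 bases on both strands. The PU.1 letters GAGGAAGT stood in 72 of the 1212 distal regions (5.94%), and the difference of set means had a median of -0.26 in them, against 0.01 in those without. It was negative in 48 of the 72 (66.7%), against 48.2% without the letters. Of the 72, 15 lay below in all 3 libraries (20.8%) and 2 above (2.78%), beside 8.66% and 7.01% of all distal regions. Median log2 scaled density of these 72 regions was -0.81 in ATAC2, -0.63 in ATAC5 and -0.99 in ATAC6, and -0.49 in ATAC1, -0.49 in ATAC3, -0.71 in ATAC4 and -0.59 in ATAC7. ATAC4 lay below ATAC5, so the sets overlapped in this level. Without ATAC6 the PU.1 median was -0.14, and with at least 100 reads in every library the median over 23 regions was 0.03.

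The C/EBP letters TTGCNNAA stood in 163 distal regions (13.4%), and in 13 of the 44 lower ones (29.5%, 18.2 to 44.2) but 3 of the 35 higher ones (8.57%, 2.96 to 22.4). Their median difference was -0.13, against 0.02 without the letters, and 25 of the 163 lay below in all 3 libraries (15.3%) and 7 above (4.29%), beside 8.66% and 7.01% of all distal regions. Without ATAC6 the median was -0.02, and with at least 100 reads in every library it was 0.01. Relative to distal regions without the letters, median log2 density was lower by 0.19 in ATAC2, 0.16 in ATAC5 and 0.22 in ATAC6, and the change was 0.01 in ATAC1, -0.01 in ATAC3, -0.04 in ATAC4 and -0.14 in ATAC7. The motif groups overlapped: 58 of the 163 C/EBP regions and 17 of the 72 PU.1 regions also held AP-1 letters, and 11 held both PU.1 and C/EBP letters. The Runx letters TGTGGTT stood in 96 distal regions (7.92%), in 3 of the 44 lower ones (6.82%) and 2 of the 35 higher ones (5.71%). Their median difference was -0.17, with 13 below in all 3 libraries (13.5%) and 4 above (4.17%), beside the same 8.66% and 7.01%. The Runx median was not computed under other choices of width, reads or libraries. In promoter regions these letters went with smaller medians, -0.04 for PU.1 and 0.01 for C/EBP, among 172 and 433 regions.

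In the other direction, the TEAD letters ACATTCC stood in 40 distal regions (3.3%), in 4 of the 35 higher and in none of the 44 lower ones, which allows a share of up to 6.82% if the limit is set at 3 counts (Wilson 95% upper limit 8.03%). The median difference of TEAD regions was 0.15 (-0.01 with the width of the peaks, 0.08 without ATAC2 and 0.27 without ATAC7), with 7 of the 40 above in all 3 libraries (17.5%) and 1 below, beside 7.01% and 8.66% of all distal regions. ATAC1 had the lowest median of these regions, -0.70, and ATAC2 the highest, -0.25. CTCF letters stood in 69 distal regions, 3 of them higher and none lower, beside 2.89% and 3.63% of all distal regions, with a median difference of 0.05. AP-1 letters TGANTCA were common in both called groups, in 12 of 35 higher (34.3%) and 20 of 44 lower regions (45.5%) against 23.9% of all distal regions, and their median difference was -0.03. The Sp letters GGGCGGG were rarer in both, at 11.4% and 9.09% against 29.5%. The other 6 motifs gave medians between 0.03 and 0.06.

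**Figure D5:**
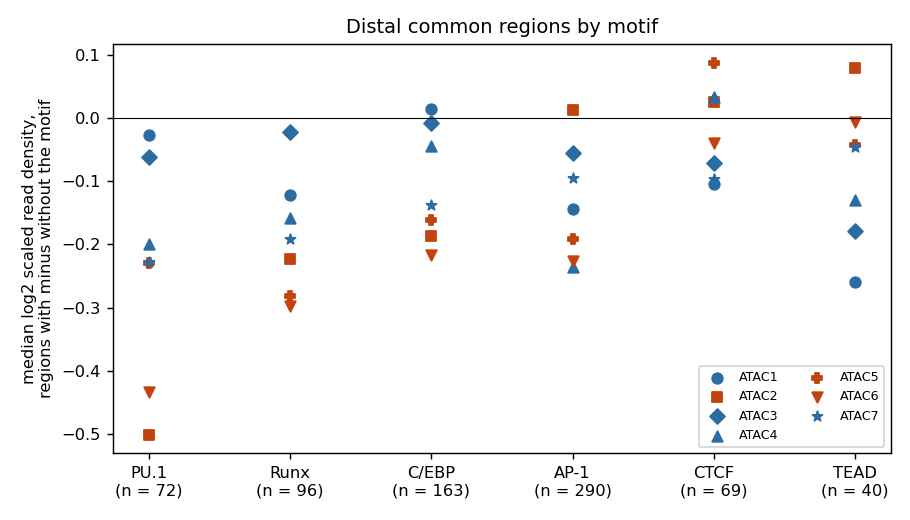
Median log2 scaled read density of distal common regions with a motif minus that of distal regions without it, for each library (red: ATAC2, ATAC5 and ATAC6; blue: the other 4). For PU.1 ATAC2 and ATAC6 are lowest, for C/EBP all 3 red libraries lie below the 4 blue ones, and for TEAD ATAC1 is lowest.

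The numbers of blood cell markers with a start-site peak overlapped between the sets. Of 13 haematopoietic markers, a peak was called at the start site (within 1000 bases) for 7 in ATAC1, 7 in ATAC3, 4 in ATAC4 and 2 in ATAC7, and for 3 in ATAC2, 8 in ATAC5 and 5 in ATAC6. Their summed scaled density lay between 1.26 and 5.39 in the 4 libraries and between 1.96 and 4.55 in the 3. Spi1, which encodes PU.1, had no such peak in any library, nor had Cd48, Gata1 and Cd3e. Of 14 stromal markers a peak was called for 6 in ATAC2, 7 in ATAC5 and 6 in ATAC6. The number was 4 in ATAC1, 3 in ATAC3, 3 in ATAC4 and 6 in ATAC7. Their summed scaled density lay between 3.45 and 5.1 in the 3 libraries and between 2.26 and 4.62 in the 4. Pdgfra had a peak in 5 of the 7 libraries and Ly6a, the Sca-1 gene by which the cells were sorted, in none. Of 10 endothelial markers 3 had a peak in ATAC5, 1 in ATAC6 and none elsewhere. The part of blood or stromal cells in the motif differences was not tested.

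Among the mesenchymal transcription factor genes, the promoters of Snai1 and Snai2 had separate sets. Common regions lay at the start site of 7768 protein-coding genes, of which 430 (5.54%) were above and 352 (4.53%) below in all 3 libraries, and the median difference over all of them was 0.002. Of 25 mesenchymal transcription factor genes 13 had such a region, 2 were above and none below, with a median of 0.08. Snai1 and Snai2 belong to the Snail family of repressors of epithelial genes. Snai2 had 1.18, 0.95 and 0.93 in ATAC2, ATAC5 and ATAC6 and 0.73, 0.66, 0.53 and 0.64 in ATAC1, ATAC3, ATAC4 and ATAC7, a difference of 0.68 that fell to 0.08 with the width of the peaks. Snai1 had 1.19, 1.54 and 1.22 against 0.97, 0.78, 1.1 and 1.0, a difference of 0.46, but -0.40 without division by width and -0.08 as a ratio to Input. Nfia and Nfix, nuclear factor I genes, were at the other end with -0.32 and -0.29, and their sets overlapped. The 4 distal regions nearest to genes of this list, Nfia, Meis1, Nfib and Nfic, were all negative, with a median of -0.17 and overlapping sets.

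Most genes of the matrix, osteoblast and chondrocyte, haematopoietic and endothelial lists had no common promoter region, while 9 of 20 adipocyte genes had one. The share over all protein-coding genes is not given here. Of all genes with such a region 5.54% were above and 4.53% below, and of all distal regions 7.01% and 8.66%. Of 34 extracellular matrix genes 7 had a common promoter region, with a median of 0.16 and only Plod1, a lysyl hydroxylase gene, above in all 3 libraries at 0.25. Fn1, which encodes fibronectin, had the highest difference of these, 0.33, with ATAC6 at 0.70 below ATAC3, ATAC4 and ATAC7. The 2 distal regions of the matrix list had a median of -0.005. Of 28 osteoblast and chondrocyte genes 5 had a region (median 0.06) and of 20 adipocyte genes 9 (median 0.003), none with separate sets. Of 2 distal regions of the adipocyte list, that nearest to Ebf2, a stromal transcription factor gene, was above at 0.55 and that nearest to Scd1, a fatty acid desaturase gene, was below at -0.40. The 7 distal regions of the osteoblast and chondrocyte list had a median of -0.15, with 4 negative. Among them 5 were nearest to Mef2c and ran from -0.36 to 0.50, the last of these above in all 3 libraries. Of 30 haematopoietic genes only Runx1 had a common promoter region, at 0.24, and of 24 endothelial genes 2 had one, Ets1 at 0.09 and Klf2 at -0.06. The 4 distal regions of the haematopoietic list had a median of -0.09, none with separate sets, from -0.54 for Ptprc, the gene of CD45, to 0.15 for Vav1. The 4 distal regions of the endothelial list had a median of 0.08. One 3472 bases from the start of Klf2 was lower, at -0.81, while those nearest to Ets1 were at 0.70 with overlapping sets and at 0.32, above in all 3 libraries.

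Signalling genes were split. Over all 7768 genes with a common promoter region 5.54% were above and 4.53% below. These shares were 4.76% and 0% in the TGF-beta and BMP list. They were 5% and 5% for Wnt and Notch and 5% and 10% for cytoskeleton and adhesion. Each list had at most 2 genes on a side. Of 21 TGF-beta and BMP pathway genes with a region (of 29), Id1, an inhibitor of differentiation induced by BMP, was above at 0.38, with 0.82, 0.86 and 0.69 against 0.58, 0.59, 0.57 and 0.69. ATAC6 and ATAC7 were alike there, and the list's median was 0.03. Smad5 and Smad6 were lowest at -0.26 and -0.24, with overlapping sets. Of 20 Wnt and Notch pathway genes (of 30) Rbpj, the nuclear partner of Notch, was above at 0.35 and Ctnnb1, the beta-catenin gene, below at -0.36, and the median was 0.04. Among cytoskeleton and adhesion genes, 20 of 34 with a region, Zyx was above at 0.48 while Flna was below at -0.47 and Actn1 at -0.22, and the median was -0.08. Both Zyx and Flna changed sign when reads were divided by the width of the peaks, to -0.04 and 0.48. The distal regions of these lists had lower medians than the promoters for 2 of the 3. The 8 of the TGF-beta and BMP list had a median of -0.18, with 1 below, near Ski at -0.58. The 10 of the cytoskeleton and adhesion list had a median of -0.22, with 2 below, near Cd44 and Lgals1 at -0.52 and -0.35. Of all distal regions 8.66% were below. The 3 of the Wnt and Notch list had a median of 0.16.

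Stress genes gave examples on both sides. Of the 25 immediate early genes with a region 8% were above and 8% below. For the 14 heat shock genes it was 7.14% and 7.14%, and for the 12 interferon and antigen presentation genes 0% and 8.33%. Over all genes with such a region these shares were 5.54% and 4.53%. Each list had at most 2 genes on a side. Immediate early genes are switched on within minutes of stimulation or tissue handling, and 25 of 26 had a common promoter region, with a median of -0.04. Egr1 was above, with 1.85, 2.17 and 2.26 against 1.73, 1.59, 1.42 and 1.56, a difference of 0.41 that fell to 0.08 without division by width. Fos was above at 0.19, while Dusp1 was below at -0.41 and Ier2 at -0.24. Fos and Ier2 changed sign without division by width, to -0.14 and 0.13. The 31 distal regions nearest to these genes had a median of -0.06, with 2 below and none above, beside 8.66% and 7.01% of all distal regions, so the count does not set these genes apart. Of 14 heat shock genes (of 19) Chordc1, which encodes a co-chaperone of Hsp90, was above at 0.56, and Hsf1, the heat shock factor gene, was below at -0.38, with a median of 0.02. Hsf1 turned to 0.88 with the width of the peaks and to 0.14 without any width. Of 12 interferon and antigen presentation genes (of 25) H2-K1 was below at -0.23, with a median of -0.05, and the 4 distal regions had a median of -0.06.

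Cell cycle, respiration and ribosomal protein genes had medians between -0.10 and 0.01. Of 27 cell cycle genes (of 35), 2 were below (7.41%, beside 4.53% of all genes with such a region) and none above. These were Cdc25b and Mcm7 at -0.30 and -0.29, and the list's median was 0.01. Bub1, a spindle checkpoint gene, had the lowest difference, -0.51, but ATAC1 at 0.76 lay below ATAC2 at 0.79. The 9 distal regions of the cell cycle list had a median of -0.13, with 7 negative and that nearest to Aurkb above at 0.34. Of 23 mitochondrial respiration genes (of 29) only 1 was above (4.35%, beside 5.54% of all), with a median of -0.03. This was Ndufa2, a complex I gene, at 0.34 (-0.16 without division by width). Of 83 ribosomal protein genes 70 had a region, with a median of -0.10 and 46 negative values. In this list 4 were below (5.71%), namely Rps18, Rpl13, Rpl22 and Rpl29, and Rpl10 was above, beside 4.53% below and 5.54% above of all genes with such a region. Rps18 had 1.12, 0.92 and 1.25 against 1.87, 1.88, 1.29 and 1.64, a difference of -0.60, but outer widths of 667 to 1097 bases in the 3 libraries against 269 to 328 in the 4, and without division by width it differed by 0.48. Rpl10 and Rpl13 also changed sign without division by width, and Rpl10 and Rpl29 with the width of the peaks. Rps24 differed by -0.65 with overlapping sets, since ATAC2 at 1.11 exceeded ATAC7 at 1.04.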

How the data were processed

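The authors aligned reads to mouse build mm9 with bowtie, called peaks in each library against 1 Input library with CisGenome and deposited 1 peak table per library. The submitters' processing notes name Bowtie, DiffBind and bedtools. For every peak the deposited tables hold 2 raw read counts, taken in its wider outer region from the library and from Input, and a fold over Input (a ratio), used here only as a filter. Whether duplicates were removed or cut sites shifted is not given in the sources used here; a missing shift moves peak edges by a few bases. Outer regions of neighbouring peaks overlapped in 5835 of 67122 peaks, whose shared reads count more than once.

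Scaled density, the difference of set means of its log2 and the calls were computed as the report describes. Regions were annotated with GENCODE vM1 on NCBIM37 and screened against the mitochondrial genome with blastn 2.17.0 (at least 50 bases and 80% identity). Python 3.11.15, pandas 2.3.3 and scipy 1.17.1 were used. The calling step was run on simulated counts with planted changes and counting error only. That run does not test the choice of width or the spread between libraries. Named regions were the 10 with the largest difference in each direction with at least 50 reads in every library, no mitochondrial match and not on chromosome 18, with the 2 highest and 2 lowest genes of each of 15 lists and the markers. Further list genes whose sets did not overlap are also named. The regions, sets, lists and motifs were chosen with earlier results of these data known. The report gives no p-value, and Wilson intervals cover counting error only. The labels' extraction text describes an RNA kit, whereas the molecule is genomic DNA. The values of 1 region just inside the limit and of 1 marker are not reported here.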

Additional observations from a re-analysis of the deposited data

How the results depend on the processing

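No paired analysis was possible because no title was sequenced more than once. The counts of higher and lower regions moved with the width and the filter. Without division by width there were 252 higher and 244 lower regions, and with the width of the peaks 242 and 427, with promoter shares of 86% and 78% and median GC of 66.5% and 63.7%. Of these, 19 higher and 36 lower regions without width were among the main 68 and 76. As a ratio to Input 97 regions were higher and 143 lower, of which 33 and 49 were among the main calls. At 100 or more reads in every library 35 and 20 remained of the calls, a filter that removes regions with 1 low library. A mean of 100 reads, chosen after seeing the data, gave 68 and 71. Regions of like width gave 12 higher, with GC of 60.5%, and 3 lower, of which 0% were promoters. A fold limit of 2 gave 2 and 2, the lower ones with 0% promoters and GC of 51.7%. Peaks with a fold of at least 5 left 4929 common regions, with 35 higher. Leaving out each library in turn gave 57 to 179 higher and 68 to 134 lower regions.

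The motif and list alternatives were added after seeing the data. The median difference of distal regions with PU.1 letters was -0.50 with the width of the peaks, -0.53 without width, -0.40 as a ratio to Input, -0.11 in 3 regions of like width and 0.0294 in 23 regions with 100 reads in every library, but -0.25 at a mean of 100 reads; it ranged from -0.38 without ATAC5 to -0.14 without ATAC6. For C/EBP it was -0.35 with the width of the peaks and 0.00895 at 100 reads in every library, and leaving out libraries gave -0.19 to -0.0158, the latter without ATAC6. With the width of the peaks the median of TEAD regions became -0.0146, that of zinc finger promoters -0.0892 and that of chromosome X -0.0318, and ribosomal promoters of like width gave 0.0452 in 2 regions.

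Of 303 values of the 20 named regions under alternatives, 3 changed sign: Nkx2-2as (-0.66) and Crb2 (-0.26) without width, and Fmnl1 (0.0128) with the width of the peaks. Among the named promoters whose sets did not overlap, the sign changed with the width of the peaks for Hsf1 (0.88), Flna (0.48), Zyx (-0.0359), Rpl10 (-1.10), Rpl29 (0.545) and Zfp788 (-1.03); without width for Snai1 (-0.40), Hsf1 (0.14), Flna (0.77), Ndufa2 (-0.16), Ier2 (0.132), Fos (-0.136), Rps18 (0.48), Rpl13 (0.463) and Rpl10 (-0.17); and as a ratio to Input for Snai1 (-0.0804) and Flna (0.0453). The cause was not tested.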

Other observations

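Promoters of zinc finger genes, a list set after its members were seen among the calls, had a small positive median difference with division by the outer width, which turned to -0.0892 with the width of the peaks. Of 421 genes with names of the Zfp, Zscan, Zkscan or Zbtb series 206 had a common promoter region, with a median difference of 0.07 for the outer width. In 24 (11.7%) all 3 libraries lay above the other 4 and in 5 (2.43%) below, beside 5.54% and 4.53% of all genes with such a region. Genes and not regions were counted: Zfp758 and Zfp944 share 1 region, which stands for 2 of the 24. Many of these genes are repressors of transposable elements and lie in clusters of related copies, so read placement among copies is uncertain. Zfp788 had 2.38 in ATAC2, 2.09 in ATAC5 and 1.61 in ATAC6, against 1.29 in ATAC1, 1.3 in ATAC3, 0.94 in ATAC4 and 1.18 in ATAC7, a difference of 0.78 that turned to -1.03 with the width of the peaks. Zscan22 had 1.44, 0.97 and 1.07 against 0.72, 0.70, 0.69 and 0.72, a difference of 0.69 that fell to 0.07 with the width of the peaks.

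The chromosomes with over 100 common regions had median differences from -0.10 on chromosome 11 to 0.10 on chromosome X. The 226 common regions on chromosome X had a median difference of 0.10, which turned to -0.0318 with the width of the peaks, and a median log2 density of -0.21 in ATAC2 and -0.30 to -0.36 in the other 6 libraries. The 4 regions on chromosome Y had medians of -0.52 in ATAC5 and -0.64 in ATAC6, -0.18 in ATAC2 and -0.08 to 0.11 in the other set. On chromosome 11, with 653 regions, the median difference was -0.10 and the median log2 density was -0.20 in ATAC2 and -0.10 to 0.02 in the others. The sex of the animals is not given in the labels.

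Across the 8428 regions, the difference between the sets had a Spearman's rho of -0.23 with the difference in outer width and -0.01 with GC content. These values describe regions that share the same libraries. The outer width is also the denominator of the density, so a negative rho with it can arise from the division alone.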
